A study of Mus musculus with 53 samples.

Results

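Lung tumours started by a lentiviral vector with an sgRNA against Rb1 were compared with tumours started by inert vectors in the same mouse, and the comparison was repeated in 3 genotypes that differ in whether p53 or Lkb1 is also deleted. The members are all tumours listed under the target Rb1 (mouse Entrez gene 19645) in the mice that received the whole vector pool and were followed for 15 weeks. They number 24977 of the 335123 tumours of those 35 mice and of 409584 tumours in all 53 mice of the series. The control in each mouse was its tumours with inert sgRNAs, 91281 in all, which the table merges under a common label. The mice followed for 9 weeks received single vectors and list 0 Rb1 tumours.

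The retinoblastoma protein encoded by Rb1 binds E2F transcription factors and holds cells before S phase until CDK4 and CDK6 phosphorylate it. The inhibitor p16, a product of Cdkn2a, acts on these kinases, so that Cdkn2a lies upstream of Rb1, while p53 limits proliferation in part through the CDK inhibitor p21. In human lung cancer RB1 is lost in nearly every small cell carcinoma and in a minority of adenocarcinomas.

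Each vector delivered Cre, an sgRNA and its own random barcode, and was given through the trachea to mice whose genotypes the labels give only as letters. The letters K, T and C are shared by all 3 genotypes. As such strains are usually named, C stands for a Cre-activated Cas9 allele and T for a fluorescent reporter, while P and L are alleles that Cre deletes at p53 and Lkb1. KTC mice (n = 10) therefore keep p53 and Lkb1 outside the tumours whose sgRNA targets them, KPTC mice (n = 12) lack p53 in every tumour, and KLTC mice (n = 13) lack Lkb1 in every tumour but keep p53. The mouse is the replicate. Barcodes were amplified from DNA of whole lungs, so that a listed tumour is a barcode with an estimated number of cells, and neither the Rb1 alleles nor the histology of a tumour was measured.

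The barcodes are shown because they are the only record that makes a listed tumour an item of its own, and because a single barcode family changes the KLTC result below. An Rb1 barcode is 21 bases long. Of the 24977 listed Rb1 tumours of the pool mice, 94.3% have TT at positions 8 to 9 and 92.6% have AA at positions 15 to 16. These tumours carry 20825 distinct barcodes. The barcodes of the largest Rb1 tumours are printed 5′ to 3′ as deposited, with the bases at those 4 positions in capitals.
KTC replicate 1, 7.29e+06 cells: aatgccaTTccgtgAAtaaag
KTC replicate 6, 3.35e+06 cells: aacaacgTTacggaAAccctt
KPTC replicate 6, 6.68e+06 cells: aacacgtTTtatgcAAcggcc
KPTC replicate 6, 5.85e+06 cells: aagctcaTTcgttcAAtcggt
KLTC replicate 4, 6.41e+06 cells: aacgctaTTtcgttAAcctcc
KLTC replicate 12, 1.63e+08 cells: aacgggtTCgataaCTtctat
The first 5 carry both pairs, and the barcode of the largest tumour, in KLTC replicate 12, carries neither. All 6 barcodes were also listed with Rb1 in other pool mice, in 7 to 21 of them. The KTC and KPTC barcodes and that of KLTC replicate 4 were listed there at 580.5 to 25285 cells, and that of KLTC replicate 12 at 22313 to 415823 cells in 10 other KLTC and 2 KTC mice. Over all Rb1 barcodes, 2055 (9.87%) were listed in 2 or more pool mice.

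A KTC mouse had between 58 and 1879 Rb1 tumours, a KPTC mouse between 260 and 2312, and a KLTC mouse between 33 and 1071. The number of inert tumours ran from 171 to 8178 over the 35 mice. Within a mouse the listed sizes were whole multiples of a fixed step plus a small offset, as whole reads times a constant would be. The step ranged from 2.31 to 486 cells with a median of 80.7, and the median Rb1 tumour was 3.10 to 340 steps in size, so that the smallest tumours of several mice rest on few steps. The smallest listed size was 500.6 to 982 cells, which bounds what each mouse could show.

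KLTC replicate 12 stood apart. Of its 389 Rb1 tumours, 187 (48.1%, 95% exact binomial interval 43.0 to 53.2%, which covers counting error only) had a barcode within 2 mismatches of an Rb1 barcode at least 100 times larger, called a near copy here. At most 3 Rb1 near copies were listed in any other mouse. From its largest barcode, 34 Rb1 barcodes lay at 1 mismatch and 152 at 2, 0 lay at 3 to 7, and the next lay at 8. The near copies measured 528 to 29630 cells. The KLTC size effect, upper percentiles, number and mean size are therefore also given without near copies.

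**Figure D1:**
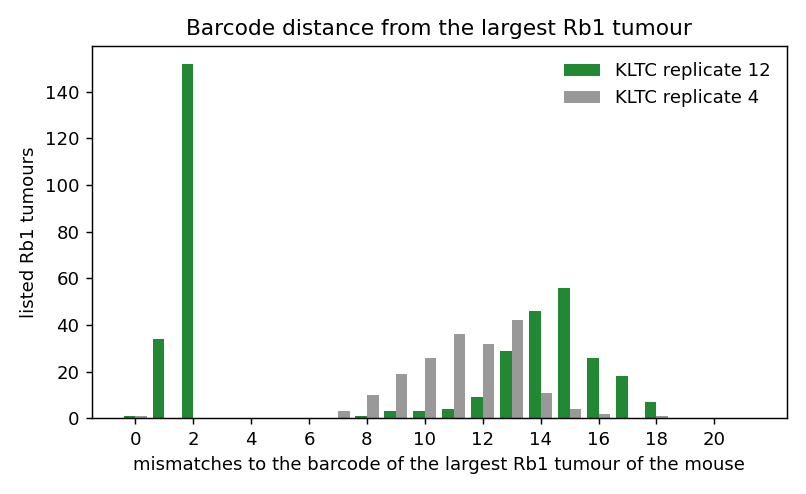
Number of listed Rb1 tumours (vertical axis) by the number of mismatches between their barcode and that of the largest Rb1 tumour of the same mouse (horizontal axis), in KLTC replicate 12 (green) and KLTC replicate 4 (grey). In replicate 12, 186 barcodes lie at 1 or 2 mismatches and the rest at 8 or more, while in replicate 4 the nearest lies at 7.

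In mice without p53, Rb1 tumours were larger than inert tumours by log-normal mean in every animal. The log-normal mean is a mean size computed from the average and variance of log size. It tempers single very large tumours but grows with the spread of log size, so that it can exceed the arithmetic mean. It was 1780 to 6154 cells for Rb1 (median 2546) and 1360 to 5001 cells for inert tumours (median 1823) across the 12 KPTC mice. Levels overlapped between the vectors across mice, but within a mouse the Rb1 mean was the higher in 12 of 12. The log2 ratio of Rb1 to inert, the size effect, ran from 0.30 to 0.82 and averaged 0.49 ± 0.17 (SD, n = 12), a 1.40-fold difference with adjusted p = 0.00134 when the signs of the mice were permuted (exact sign-flip test, two-sided). In KPTC, 72.7% of the 11 targets passed this test, so that passing it does not set Rb1 apart.

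In KTC mice, which keep p53, the effect was smaller and less even. The log-normal mean was 959 to 4677 cells for Rb1 (median 3118) and 1179 to 3624 cells for inert tumours (median 2432). Rb1 was the higher in 9 of 10 mice, with log2 ratios from -0.30 to 0.63. The exception was replicate 9, which had 58 Rb1 tumours and 482 inert ones. The mean of 0.26 ± 0.26 (SD, n = 10) passed the test (adjusted p = 0.0344), as did 45.5% of the 11 targets. That call was lost (adjusted p = 0.0688, exact) when any of replicates 2, 5, 6, 7, 8 or 10 was left out, with means of 0.21 to 0.25.

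In KLTC mice, which keep p53 and lack Lkb1, the Rb1 effect was spread more widely between mice. The log-normal mean was 2048 to 117474 cells for Rb1 (median 13324) and 1824 to 70047 cells for inert tumours (median 7932). The highest Rb1 value, in replicate 10, lay above the arithmetic mean of 79017 cells there. Rb1 exceeded inert in 11 of 13 mice, but the log2 ratio was -1.53 in replicate 7, with 75 Rb1 tumours, and -1.33 in replicate 12. The mean was 0.27 ± 0.86 (SD, n = 13) and did not pass (adjusted p = 0.445), and 9.09% of the 11 targets did. Without near copies the effect in replicate 12 was 1.16, that is, on the other side of 0, and the KLTC mean was 0.46 ± 0.75, higher in 12 of 13 mice (adjusted p = 0.136, exact). A tumour was called matched where another mouse listed a tumour with that target and barcode and at least 10 times as many cells. The median share of matched tumours over KLTC mice was 40.6% for Rb1 and, taken separately, 28.7% for inert tumours. These medians were 3.34% and 6.30% in KTC and 5.07% and 7.65% in KPTC. With matched tumours and near copies left out together, the KLTC mean was 1.15 (adjusted p = 0.00537, exact). By the medians above, dropping matched tumours takes a larger share of Rb1 than of inert tumours in KLTC. The part of this filter in the value was not tested.

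**Figure D2:**
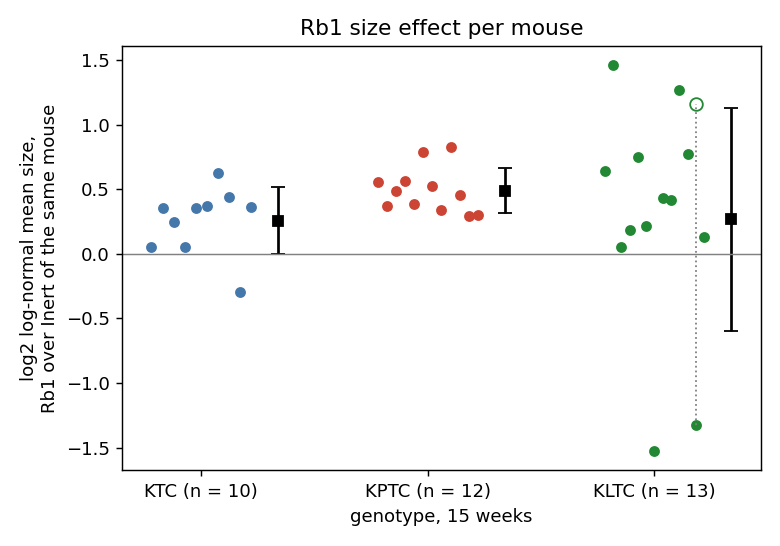
Rb1 size effect, as the log2 of Rb1 over inert log-normal mean within a mouse (vertical axis), for each 15-week mouse of the 3 genotypes (horizontal axis), with the mean ± SD as a black square and bar. All 12 KPTC mice lie between 0.30 and 0.82, 1 KTC mouse and 2 KLTC mice lie below 0, and the open circle shows KLTC replicate 12 at 1.16 without near copies.

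The difference in size effect between KPTC and KTC was 0.23 ± 0.10 (SE) on the log2 scale, from 0.04 to 0.43 at 2 SE on either side. It passed a two-sided permutation test of the mouse labels (adjusted p = 0.0361), and 54.5% of the 11 targets differed between these genotypes, 3 with a larger effect in KPTC and 3 with a smaller. Leaving out any single mouse among KPTC replicates 1, 6, 7 and 9 and KTC replicates 1, 4 and 9 lost the call, with differences from 0.17 without KTC replicate 9 to 0.23 and adjusted p-values of 0.0545 to 0.0737. Rb1 effects in the 2 genotypes overlapped. The difference was 0.22 ± 0.24 between KPTC and KLTC (adjusted p = 0.562, from -0.27 to 0.71 at 2 SE), where 27.3% of targets differed. It was 0.01 ± 0.25 between KLTC and KTC (adjusted p = 0.972, from -0.50 to 0.52), where 27.3% also did. Set against both genotypes that keep p53 (n = 23), KPTC differed by 0.23 ± 0.15 (adjusted p = 0.890), and 0% of targets differed. With 1 mouse left out, the KPTC and KLTC difference ran from 0.07 without KLTC replicate 7 to 0.32 without KLTC replicate 2, and that of KLTC and KTC from -0.09 without KLTC replicate 2 to 0.16 without KLTC replicate 7. These comparisons share mice and are not independent.

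The size of the Rb1 effect depended on where in the size distribution it was read. In KPTC mice all 7 percentiles examined were on average higher for Rb1 than for inert tumours. The log2 ratio was 0.14 ± 0.13 at the median, 0.16 ± 0.04 at the 70th percentile, 0.47 ± 0.24 at the 90th, 0.86 ± 0.36 at the 95th and 1.85 ± 0.98 at the 99th. In KPTC replicates 3, 10, 11 and 12 the Rb1 and inert medians lay far less than 1 step apart, with log2 ratios of 0.003 to 0.012. The same held at the 60th percentile in replicates 1, 3, 11 and 12 (0.003 to 0.013). The signs of these mice thus lie below the resolution of the sizes. In KPTC replicates 1, 2, 4, 6, 7, 8 and 9 the medians lay about 1 step apart, with log2 ratios of 0.07 to 0.31. The share of the 11 targets that passed in KPTC was 63.6% at the median, 54.5% at the 95th and 45.5% at the 99th percentile. In KTC mice 3 of 7 percentiles passed, with 0.13 ± 0.12 at the 70th, 0.21 ± 0.22 at the 80th and 0.37 ± 0.33 at the 90th, where 45.5%, 45.5% and 54.5% of the 11 targets passed. At the 70th, Rb1 and inert tumours of KTC replicates 1 and 5 also lay far less than 1 step apart (0.0005 and 0.003). The KTC values were 0.05 ± 0.09 at the median, 0.33 ± 0.56 at the 95th (adjusted p = 0.215) and 0.16 ± 1.03 at the 99th (adjusted p = 0.891). In KLTC mice 0 of 7 passed the sign-flip permutation test, also at an unadjusted p under 0.05, and 1 of 7 passed without near copies. Without near copies the KLTC ratio was 0.44 ± 0.93 at the 95th percentile (adjusted p = 0.419, exact) and 0.20 ± 1.07 at the 99th (adjusted p = 0.727, exact).

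**Figure D3:**
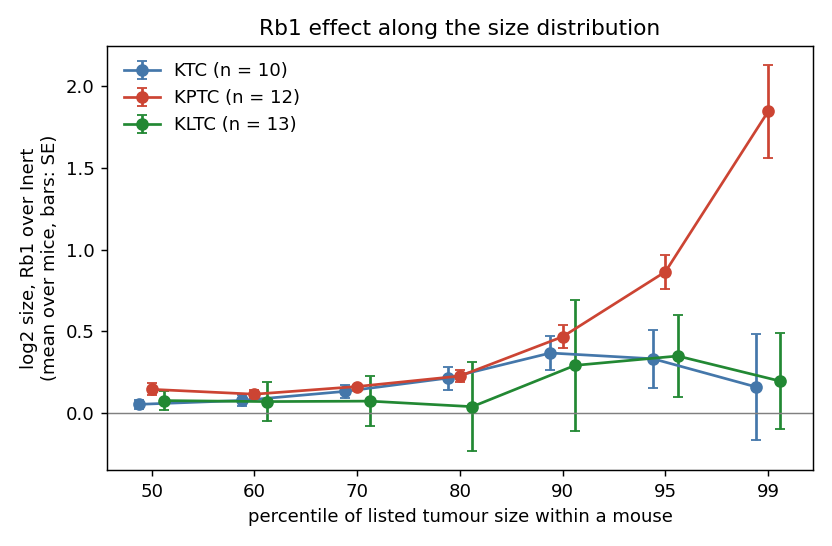
Log2 ratio of Rb1 to inert tumour size (vertical axis) at 7 percentiles of size within a mouse (horizontal axis, spaced evenly by rank), as the mean over mice with the SE for KTC, KPTC and KLTC. The means lie between 0.05 and 0.14 at the median, and at the 99th percentile KPTC lies at 1.85 against 0.16 and 0.19.

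The 99th percentile, above which the largest 1% of tumours of a vector lie, separated the genotypes most. In KPTC mice it was 42672 to 467226 cells for Rb1 (median 176549) and 17521 to 129850 cells for inert tumours (median 36309). In KTC mice it was 4735 to 221822 cells for Rb1 (median 67082) and 21948 to 133647 cells for inert tumours (median 53126). Rb1 was thus the higher in 12 of 12 KPTC mice and in 6 of 10 KTC mice. The KPTC ratio averaged 3.59-fold (adjusted p = 0.00179), with log2 values from 0.83 to 3.84 against -2.21 to 1.62 in KTC, so that the ranges overlapped.

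The difference between KPTC and KTC at the 99th percentile was 1.69 ± 0.43 (SE) on the log2 scale, from 0.82 to 2.55 at 2 SE (adjusted p = 0.00506, permutation of mouse labels). Of the 11 targets, 9.09% passed in this comparison, which is Rb1 alone. Its value stayed between 1.42 and 1.85 and past the threshold when any of the 22 mice was left out. The value of 1.42 is that without KTC replicate 9, the only mouse of these with fewer than 100 Rb1 tumours. A minimum of 100 Rb1 tumours leaves out that same mouse and is no separate check. The sign of the difference held within the mice whose ID begins with IW, 7 KPTC and 8 KTC, at 1.40, but it missed the threshold there (adjusted p = 0.0684, exact permutation). The meaning of these ID prefixes was not given in the sources used here. With only tumours of 1500 cells or more the difference was 1.02 and missed the threshold too (adjusted p = 0.239). At the 95th percentile it was 0.53 ± 0.21 (adjusted p = 0.0494), and 36.4% of targets differed.

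Against KLTC the KPTC ratio at the 99th percentile was higher by 1.65 ± 0.41 (adjusted p = 0.000513), but 54.5% of the 11 targets passed in that comparison. Rb1 in KLTC had a 99th percentile of 35033 to 4938570 cells (median 725783), and the inert tumours one of 54009 to 1904450 cells (median 541046). Rb1 was the higher in 10 of 13 KLTC mice, with a mean log2 ratio of 0.19 ± 1.05. In KLTC replicates 1, 2 and 7, with 33, 97 and 75 Rb1 tumours, this percentile rests on the few largest. Their log2 ratios were -0.62, 0.42 and -2.61. Over 8 alternatives, a minimum of 100 tumours among them, the KLTC mean ran from 0.12 to 0.57 and did not pass. That difference from KPTC did not pass with only tumours of 1500 cells or more (1.01, adjusted p = 0.0922) and without matched tumours and near copies (1.27, adjusted p = 0.0515). KLTC and KTC differed by 0.03 ± 0.44 (adjusted p = 0.937, from -0.84 to 0.91 at 2 SE), where 18.2% of targets differed. Over 11 alternatives the KLTC and KTC difference ran from -0.62 to 0.49 and did not pass. Against both genotypes that keep p53, the Rb1 value in KPTC was higher by 1.67 ± 0.35 (adjusted p = 0.00011). The unadjusted p of 1e-05 is the smallest that the resamples can give, and Rb1 was again the 9.09% of targets that passed.

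**Figure D4:**
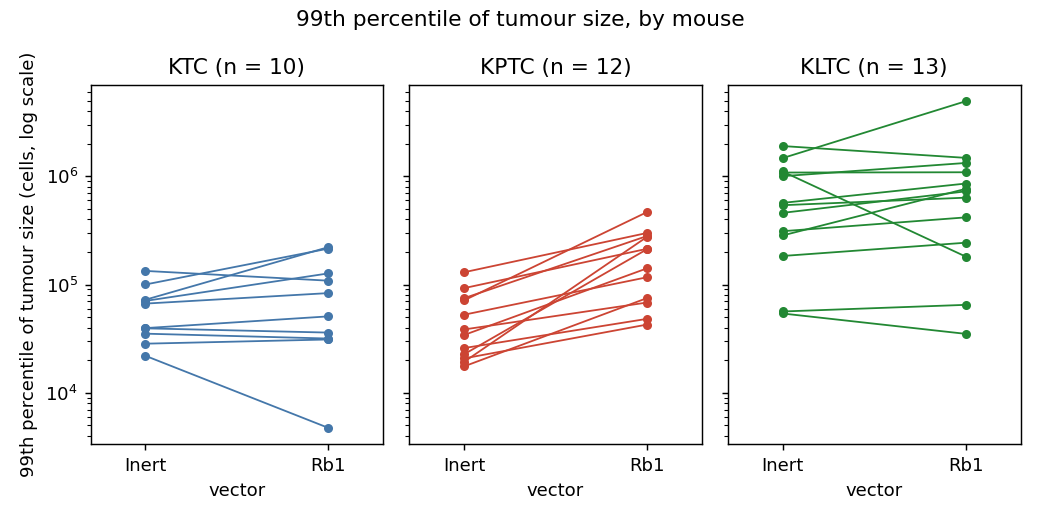
The 99th percentile of tumour size in cells (vertical axis, log scale) of inert and Rb1 tumours (horizontal axis), with a line per mouse and a panel per genotype. The line rises in 12 of 12 KPTC mice, in 6 of 10 KTC mice and in 10 of 13 KLTC mice.

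Large tumours made up a higher share of Rb1 than of inert tumours in KPTC mice. Tumours above 100000 cells made up 0.38 to 2.75% of Rb1 tumours (median 1.33%) and 0 to 1.20% of inert tumours (median 0.58%), a difference of 0.87 ± 0.57 percentage points (higher in 11 of 12 mice, adjusted p = 0.00358). In that test 27.3% of the 11 targets passed. In KTC mice the shares were 0 to 1.92% for Rb1 (median 0.83%) and 0.12 to 1.36% for inert tumours (median 0.57%), a difference of 0.29 ± 0.43 percentage points (7 of 10 mice, adjusted p = 0.251). The lowest KTC share is 0 of 58 Rb1 tumours in replicate 9, which allows up to 5.17%. In KLTC mice they were 0 to 23.05% for Rb1 (median 7.22%) and 0.49 to 14.8% for inert tumours (median 4.93%), with a difference of 1.05 ± 3.69 points (9 of 13 mice, adjusted p = 0.574). Here the lowest is 0 of 33 Rb1 tumours in replicate 1, which allows up to 9.09%.

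The same counts taken as log2 odds ratios, with 0.5 added to each count, gave 1.498 ± 0.90 in KPTC (adjusted p = 0.00358), 0.76 ± 0.68 in KTC (adjusted p = 0.0358) and 0.34 ± 0.53 in KLTC (adjusted p = 0.207), with 45.5%, 27.3% and 9.09% of targets past the threshold. The KTC excess above 100000 cells thus passed as an odds ratio and not in percentage points, and the added 0.5 raises the odds ratio where Rb1 counts are near 0. Between KPTC and KTC the Rb1 excess above 100000 cells differed by 0.58 ± 0.21 percentage points, which missed the threshold (adjusted p = 0.0633). It passed without KPTC replicate 8 (0.66, adjusted p = 0.0298, permutation) or KTC replicate 5 (0.65, adjusted p = 0.0485). As an odds ratio it differed by 0.74 ± 0.34 (adjusted p = 0.224). Above 10000 cells the odds ratio of Rb1 over inert was 0.79 ± 0.43 in KPTC (adjusted p = 0.00269, with 63.6% of targets) and 0.25 ± 0.60 in KTC (adjusted p = 0.344, with 27.3%). The KTC value rests on replicate 9, at -1.38, and without it KTC passed at 0.43 (adjusted p = 0.0107, exact). In percentage points both passed, at 2.46 ± 1.23 in KPTC and 1.71 ± 1.87 in KTC (adjusted p = 0.00537 and 0.0483). The difference in odds ratio of 0.54 ± 0.23 passed (adjusted p = 0.0463), together with 18.2% of targets. It lost the call when any of 15 of the 22 mice was left out, at 0.36 (adjusted p = 0.0949, permutation) without KTC replicate 9, and in percentage points it was 0.75 ± 0.69 (adjusted p = 0.384). Between KPTC and KLTC the odds ratio above 100000 cells differed by 1.16 ± 0.30 (adjusted p = 0.00088, with 27.3% of targets), while in percentage points the sign was the other way (-0.18 ± 1.04, adjusted p = 0.903), so that no direction is given. In points it ran from -0.79 without KLTC replicate 12 to 0.57 without KLTC replicate 10. Without matched tumours and near copies it was -5.15 (adjusted p = 0.024, permutation), and KLTC exceeded KTC by 5.77 points (adjusted p = 0.0365). The matched filter removes tumours that are small beside the copy of their barcode in another mouse. By the medians above it takes a larger share of Rb1 than of inert tumours in KLTC, but not in KTC or KPTC. Its part in these values was not tested. Above 1000 cells, Rb1 shares exceeded inert shares by 3.22 ± 2.09 points in KPTC, 2.19 ± 3.16 in KTC and 4.005 ± 4.40 in KLTC, each past the threshold (adjusted p = 0.00179, 0.0269 and 0.0282), as were 45.5%, 36.4% and 36.4% of targets.

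Tumours of more than 1000000 cells were rare. They numbered 26 of 10533 Rb1 tumours and 37 of 39164 inert tumours in KPTC, 12 of 10950 and 12 of 39940 in KTC, and 29 of 3494 and 51 of 12177 in KLTC, as sums over mice. In percentage points 0 genotypes passed for Rb1 (adjusted p = 0.451, 0.0688 and 0.559 in KPTC, KTC and KLTC). By odds ratio 100%, 18.2% and 90.9% of the 11 targets passed in KTC, KPTC and KLTC, Rb1 among them in each. With counts this close to 0 the odds ratio is set largely by the added 0.5, which weighs more on Rb1 than on the more numerous inert tumours, and it is not read here.

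In some mice a single tumour held much of the Rb1 cells, and so weighed on the mean number of cells per Rb1 tumour. The largest Rb1 tumour held 8.35 to 54.2% of all Rb1 cells of a mouse in KPTC (median 23.3%). It held 5.08 to 67.9% in KTC (median 14.8%) and 6.66 to 78.6% in KLTC (median 20.8%). The value of 78.6% is that of KLTC replicate 12. The arithmetic mean size was higher for Rb1 by 0.78 ± 0.96 on the log2 scale in KPTC (10 of 12 mice, adjusted p = 0.0698), 0.43 ± 0.73 in KTC (7 of 10, adjusted p = 0.206) and 0.44 ± 0.87 in KLTC (11 of 13, adjusted p = 0.328). Without the largest tumour of each target, KPTC passed at 0.70 (adjusted p = 0.0179), while the difference was 0.23 in KTC (adjusted p = 0.317) and 0.18 in KLTC (adjusted p = 0.496). Without near copies it was 0.51 in KLTC (adjusted p = 0.325, exact).

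Rb1 tumour number did not differ between genotypes past the threshold. The number of Rb1 tumours per inert tumour of the same mouse was 0.12 to 0.29 in KTC (median 0.28), 0.20 to 0.29 in KPTC (median 0.27) and 0.11 to 0.55 in KLTC (median 0.30). The highest KLTC value is that of replicate 12, whose log2 number ratio was -0.87 with near copies and -1.81 without them. The share of the vector in the pool is not in the table, so that these ratios are compared only between genotypes. The log2 difference was 0.03 ± 0.13 for KPTC against KTC (adjusted p = 0.933, from -0.23 to 0.30 at 2 SE), -0.13 ± 0.16 for KPTC against KLTC (adjusted p = 0.790) and 0.16 ± 0.19 for KLTC against KTC (adjusted p = 0.837). The percent of targets that differed in number was 9.09, 27.3 and 0. Without near copies the difference was -0.06 for KPTC against KLTC (adjusted p = 0.967, permutation) and 0.09 for KLTC against KTC (adjusted p = 0.957).

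Rb1 tumours made up 1.65 to 20.9% of all listed cells in KPTC mice (median 10.6%), 2.18 to 10.6% in KTC (median 8.16%) and 4.48 to 34.6% in KLTC (median 8.76%). Their share of listed tumours was 6.41 to 7.96% in KPTC, 4.56 to 7.57% in KTC and 4.43 to 13.5% in KLTC. The highest KLTC value of both shares is that of replicate 12, near copies included. The next highest were 13.5% of cells in replicate 11 and 10.4% of tumours in replicate 7. The log2 ratio of Rb1 to inert cells differed by 0.38 ± 0.42 between KPTC and KTC (adjusted p = 0.549, with 9.09% of targets past the threshold), by 0.21 ± 0.41 between KPTC and KLTC (adjusted p = 0.808, 0%) and by 0.17 ± 0.45 between KLTC and KTC (adjusted p = 0.737, 18.2%). With 1 mouse left out, the KPTC and KTC difference ran from 0.12 without KTC replicate 9 to 0.53 without KTC replicate 1. That of KPTC and KLTC ran from 0.07 without KPTC replicate 4 to 0.46 without KLTC replicate 12, and that of KLTC and KTC from -0.09 without KTC replicate 9 to 0.32 without KTC replicate 1. The ranges overlapped in all 3 genotypes.

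Rb1 was also set against each of the other 10 targets in the same mouse, a comparison in which the inert tumours cancel. In KPTC mice Rb1 tumours were larger by log-normal mean than those of 8 of 10 targets and smaller than those of 0, so that 80% of these tests passed. Against P53, whose sgRNA has no allele left to act on in this genotype, the log2 difference was 0.52 ± 0.14 (12 of 12 mice, adjusted p = 0.000977). It was 0.30 ± 0.24 against Cdkn2a, upstream of Rb1 (10 of 12 mice, adjusted p = 0.00671), and 0.35 ± 0.22 against ATM, the kinase that signals DNA breaks to p53 (12 of 12, adjusted p = 0.000977). Rb1 did not differ past the threshold from Lkb1, the kinase upstream of AMPK (0.09 ± 0.36, adjusted p = 0.400), or from Setd2, the histone H3 lysine methyltransferase of transcribed genes (-0.20 ± 0.36, adjusted p = 0.0911). At the 95th percentile Setd2 tumours were the larger (-0.49 ± 0.58, larger Rb1 in 2 of 12 mice, adjusted p = 0.0201).

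In KTC mice 50% of the tests passed. Rb1 tumours were larger than those of 3 targets, ATM (0.25 ± 0.26, adjusted p = 0.0293), Arid1a (0.24 ± 0.27, 0.0469) and Smad4 (0.27 ± 0.25, 0.0293), of which 0 passed at the 95th percentile. They were smaller than those of Lkb1 (-0.75 ± 0.35, larger Rb1 in 0 of 10 mice) and Setd2 (-0.96 ± 0.51, 0 of 10), both with adjusted p = 0.00977. The differences from Cdkn2a (0.15 ± 0.33, adjusted p = 0.227) and P53 (0.19 ± 0.27, adjusted p = 0.0944) missed the threshold. In KLTC 0% passed by the sign-flip permutation test, also at an unadjusted p under 0.05, and 1 of 10 passed without near copies.

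**Figure D5:**
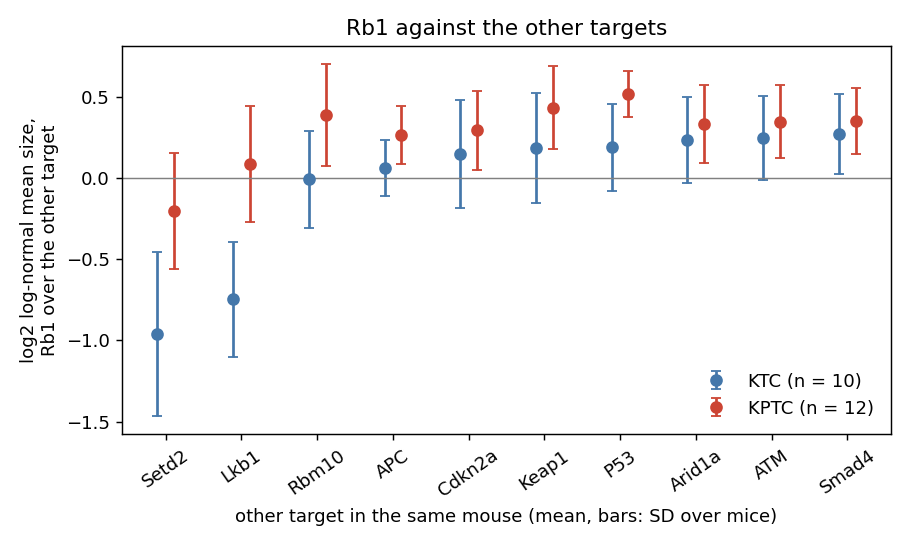
Log2 of the Rb1 log-normal mean over that of each of the other 10 targets in the same mouse (vertical axis), as the mean ± SD over KTC and KPTC mice, with targets ordered by the KTC value (horizontal axis). Setd2 lies at -0.96 and Lkb1 at -0.75 in KTC, against -0.20 and 0.09 in KPTC.

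By rank among the 11 targets of a mouse, Rb1 was 1st in 3 KPTC mice, 2nd in 4, 3rd in 4 and 5th in 1. In KTC it was 3rd in 6 of 10 mice and never higher, and in KLTC it ranged from 2nd to 11th. By mean effect it ranked 2nd in KPTC, between Setd2 (0.69) and Lkb1 (0.40), 4th in KTC, next to Rbm10 (0.26), and 5th in KLTC.

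The genes of the cell cycle and p53 list were given by their own effects over inert tumours, beside those of Rb1. Cdkn2a averaged 0.11 ± 0.17 in KTC (adjusted p = 0.150), 0.19 ± 0.20 in KPTC (adjusted p = 0.0121) and 0.34 ± 0.56 in KLTC (adjusted p = 0.196). ATM averaged 0.01 ± 0.13, 0.14 ± 0.14 (adjusted p = 0.00767) and -0.03 ± 0.59, and P53 0.06 ± 0.15, -0.03 ± 0.08 and -0.18 ± 0.81, in the same order. Thus 2 of 3 rose in KPTC and 0 of 3 in KTC and in KLTC, where at an unadjusted p under 0.05 the sign-flip permutation test also gave 0 of 3. Over all 11 targets 72.7%, 45.5% and 9.09% passed in KPTC, KTC and KLTC, so that the count of 2 of 3 in KPTC lies near its background. At the 99th percentile Cdkn2a tumours were 0.78 ± 1.26 above inert tumours in KPTC and 0.04 ± 0.79 in KTC, and the difference of 0.74 ± 0.44 missed the threshold (adjusted p = 0.225).

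The targets whose per-mouse log2 mean sizes lay nearest to those of Rb1, by root mean square difference over the 35 mice, were the chromatin remodelling subunit Arid1a (0.52), the TGF-beta mediator Smad4 (0.54) and APC, the scaffold of the beta-catenin destruction complex (0.56). The targets of 1 mouse have its inert tumours and depth in common, so that this likeness is a description. In KTC alone APC was the nearest at 0.17, and in KPTC it was also APC at 0.32. Arid1a and Smad4 lay at 0.35 and 0.36 in KTC and at 0.41 and 0.40 in KPTC. Only in KLTC were they the nearest, at 0.70 and 0.72. In KPTC, Rb1 tumours were larger than those of Arid1a and of Smad4 in 12 of 12 mice (adjusted p = 0.000977 for each, sign-flip test).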

How the data were processed

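Each row of the deposited table pairs a mouse, target and barcode with an absolute number of cells, a size estimate that the authors computed and that is neither a read count nor a log value. Read counting, the standard behind the scale and tool versions were not given in the sources used here. Each mouse is 1 library, per the labels, with 723 to 30646 listed tumours in the pool mice. Read depth is unknown, and the step between sizes was found by testing whether the smallest 80% of sizes lie 1.5 to 24% of a step above a whole multiple.

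The minimum size was 500 cells, and a target needed at least 10 tumours in a mouse. The log-normal mean was taken from log sizes by adding 0.5 of their variance to their mean and exponentiating, and every effect was the log2 ratio to the inert tumours of the same mouse. Shares above 1000, 10000, 100000 and 1000000 cells were compared as log2 odds ratios with 0.5 added to each count and, as an alternative chosen after seeing the data, in percentage points.

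Within a genotype, effects were tested by two-sided exact sign-flip permutation over mice. Their smallest p-values are 0.00195, 0.000488 and 0.000244 for KTC, KPTC and KLTC. Genotypes were compared by two-sided permutation of mouse labels, with 100000 resamples or exact enumeration. P-values were Benjamini-Hochberg adjusted over the 11 targets of each measure and comparison (10 for Rb1 against other targets), with a threshold of 0.05. They were not adjusted over the measures. Within each genotype 13 measures were tested, and the percentage points at the 4 fixed sizes were tested in addition to these. The 4 comparisons between genotypes share mice. The labels do not say whether mice shared litters or dates. Named were Rb1, the cell cycle and p53 list (Cdkn2a, P53, ATM), the 3 targets nearest to Rb1 in size, and targets that rank next to it. Rb1 and these lists were chosen with earlier results of these data known.

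Alternatives were other minimum sizes and size measures, filters on barcodes, the largest tumour and mice, and leaving out each mouse. Near copies, steps, fixed base pairs, the 100-tumour minimum, and all alternatives for the 99th percentile difference, percentage points and odds above 10000 cells were added after seeing the data. The procedure was tested on simulated data. The 11 target labels were matched to mouse genes by symbol or synonym. Python 3.11.15, NumPy 2.4.6, pandas 2.3.3, SciPy 1.17.1 and Matplotlib 3.10.9 were used.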

Additional observations from a re-analysis of the deposited data

Results flagged for a closer look

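In KTC mice, replicate 9 lay far from the other 9 mice in 3 Rb1 values, with 58 Rb1 tumours. Its log2 ratio of Rb1 to inert tumours was -2.21 at the 99th percentile, its log2 odds ratio above 10000 cells was -1.38, and its log2 number ratio was -3.05. Replicate 3 lay far above the others in the log2 odds ratio above 1000 cells, at 0.66. Chance flags about 1 in 20 groups by this rule for each value examined. The rule was run on several Rb1 values of the KTC mice only, so that KPTC and KLTC were not screened.

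Rb1 effects differed between KPTC and KTC, by a permutation test of the difference itself, in the log-normal mean (0.23), the 95th percentile (0.53), the 99th percentile (1.69) and the log2 odds ratio above 10000 cells (0.54). KPTC differed from KLTC at the 99th percentile (1.65) and in the log2 odds ratio above 100000 cells (1.16). KPTC differed from both other genotypes together at the 99th percentile (1.67) and in the log2 odds ratio above 100000 cells (0.98). For the share above 100000 cells the percentage points gave -0.18 against KLTC (adjusted p = 0.903, permutation) and 0.15 ± 0.60 against both genotypes together (adjusted p = 0.922), so that no direction is given for these odds ratios. Leaving out any of 15 mice lost the call above 10000 cells.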

How the results depend on the processing

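The KPTC size effect of Rb1 kept its sign and passed under every alternative run except the arithmetic mean (0.78, adjusted p = 0.0698). The KTC size effect kept its sign but missed the threshold at minimum sizes of 1000, 1500 and 5000 cells (0.22, 0.36 and 0.44), without the largest tumour of each target (0.22), in mice with a step of at most 250 cells (0.25), and as the 95th percentile (0.33), median (0.051) or arithmetic mean (0.43). Leaving out each mouse in turn gave 0.21 to 0.32 for KTC, 0.46 to 0.51 for KPTC and 0.17 to 0.42 for KLTC. The KPTC minus KTC difference missed the threshold at the same minimum sizes (0.40, 0.36 and 0.44), in IW mice (0.19), with at least 10 steps per tumour (0.31), in mice with a step of at most 250 cells (0.22), and as the median (0.092) or arithmetic mean (0.35), and was 0.17 to 0.27 with a mouse left out. The size effect of KPTC minus both other genotypes was 0.15 to 0.28 with a mouse left out. Without matched tumours and near copies, KLTC passed (1.15), as did KLTC minus KTC (0.91). The matched filter takes a larger share of Rb1 than of inert tumours in KLTC, and its part in these values was not tested.

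At the 99th percentile, KPTC minus KTC missed the threshold at 1500 cells (1.02) and in IW mice (1.40), and KPTC minus KLTC at 1500 cells (1.01) and without matched tumours and near copies (1.27). The other alternatives for these differences kept both sign and call. Without the largest tumours the KPTC arithmetic mean passed (0.70). The percentiles that passed in KLTC went from 0 to 1 without near copies. Of 4 fixed sizes, those that passed by odds ratio numbered 4 in KPTC, 3 in KTC and 2 in KLTC. Each of these counts holds the odds ratio above 1000000 cells, which is not read here. With tumours of at least 1500 cells as the denominator, the size of 1000 cells cannot be tested, and it had passed in all 3 genotypes. A loss of 1 was thus fixed in advance, and the counts were 2 in KPTC, 2 in KTC and 1 in KLTC. In percentage points the counts were 3 in KPTC, 2 in KTC and 1 in KLTC. With 1 added to each count KTC passed at 4 sizes, and without near copies KLTC passed at 3. The targets smaller than Rb1 went from 3 to 0 in KTC at the 95th percentile and from 0 to 1 in KLTC without near copies, and those larger than Rb1 in KPTC from 0 to 1 at the 95th percentile and at 1500 cells. Apart from the size left out at 1500 cells, the cause of these changes was not tested. No paired analysis was possible because the labels give no replicate numbers that groups share. Rb1 and inert tumours were already compared within each mouse. Depth limits the smallest sizes, where a tumour rests on few steps, and the 99th percentile in mice with few Rb1 tumours.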
